A study of Mus musculus with 6 samples.

Results

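Venous endothelial cells of the adult mouse heart were taken as the 428 cells that held both Nr2f2 and Vwf transcripts, out of 9629 endothelial cells, 12493 cells kept and 18283 deposited barcodes. A cell was kept with at least 1000 UMIs (unique transcript molecules), and a barcode found in several libraries was kept only where it had the most UMIs. It counted as endothelial with at least 3 UMIs of Pecam1, Cdh5, Egfl7 and Kdr together and at most 1 UMI of Col1a1, Dcn, Upk3b and C1qa together. A member then needed at least 1 UMI each of Nr2f2 and Vwf and no Npr3 UMI, under 2 of the arterial genes Hey1, Gja4, Sema3g and Stmn2, and under 3 of the interferon genes Ifit1, Ifit2, Ifit3, Isg15 and Rsad2. The members were thus chosen by measured values, the UMI counts of these genes, so levels of these genes, and every difference between venous and other endothelial cells, are given as description with no test.

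The series compares 2 groups of C57BL/6 mice aged 3 to 6 months in a mouse model of arrhythmogenic cardiomyopathy with reduced desmoplakin. The control group (3 libraries) had the genotype Wt1CreERT2:Rosa26mTmG. The Dsp_het group (3 libraries) had Wt1CreERT2:Rosa26mTmG:DspW/F, the same alleles plus a conditional Dsp allele. After collagenase II digestion of the heart and removal of myocytes, cells positive for EGFP were collected by sorting and profiled with 10x Chromium droplets. In both groups EGFP therefore marks cells in which the Wt1-driven inducible Cre acted, or their descendants, so the sort samples only the labelled fraction of the cardiac veins. The labels do not say whether a library came from 1 animal, so p-values measure the spread between these libraries.

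Veins and venules return blood from the capillaries and are the main site at which leukocytes leave the circulation. Nr2f2 (COUP-TFII) is the transcription factor that sets venous identity by holding Notch signalling low, whereas arterial endothelium keeps Notch signalling high through ligands such as Dll4. Vwf, the clotting protein stored in Weibel-Palade bodies, is most abundant in the endothelium of veins.

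The control libraries gave 94, 38 and 59 members with 587455, 203451 and 355450 UMIs in all. The Dsp_het libraries gave 81, 76 and 80 members with 425586, 506498 and 674646 UMIs. The median member held 6186 UMIs, against 3738 in the other 9201 endothelial cells, and the median per library lay between 5286 and 7839.5 UMIs, highest in Dsp_het replicate 3. Barcodes that also occurred in another library made up 9, 13 and 1 members of the control libraries and 3, 13 and 40 of the Dsp_het libraries. In Dsp_het replicate 3 that was 40 of 80 members, so results that rest on this library are given with and without it. Xist, the RNA that silences an X chromosome in females, stood at 554 CPM (counts per 1000000 UMIs, summed over the library's cells of a class) in control replicate 3 and at 618 CPM in Dsp_het replicate 2, with no UMI in the other 4 libraries. The targeted gene could not be checked in these cells: Dsp had 0, 0 and 0 UMIs in the control libraries and 0, 1 and 2 in the Dsp_het libraries. A count of 0 allowed up to 5.11, 14.7 and 8.44 CPM in control replicates 1, 2 and 3 and up to 7.05 CPM in Dsp_het replicate 1. GFP was held by 404 of the 428 members (94.4%), and Wt1 by 46 (10.7%).

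The members met the rule with few molecules. Nr2f2 was at 1 UMI in 169 members and Vwf at 1 UMI in 129, and 63 had both at 1 UMI. Outside the rule, 293 endothelial cells failed it only for want of Nr2f2 and 552 only for want of Vwf. Vegfc, a growth factor for lymphatic and venous endothelium, stood at 306 CPM in the 63 members at the threshold and at 363 CPM in the other 365. It stood at 266 CPM in the cells that lacked only Nr2f2 and at 194 CPM in those that lacked only Vwf. Calcrl, the receptor for adrenomedullin and calcitonin gene-related peptide, ran from 329 and 631 CPM inside the rule to 358 and 265 CPM in the same groups outside it. The members at the threshold stood apart from the rest on other genes. Cpe stood at 62.3 against 322 CPM, Bgn at 39.7 against 248 CPM, and the capillary genes Car4 at 45.3 against 7.92 CPM and Rgcc at 601 against 270.4 CPM. On Cpe and Bgn they lay below the cells that lacked only Nr2f2, at 134 and 75.2 CPM. The class of other endothelial cells holds cells with venous genes. Cells with an Nr2f2 or Vwf UMI made up 13.7%, 11.2% and 12.7% of it in the control libraries and 12.9%, 14.7% and 22.7% in the Dsp_het libraries.

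Several venous markers that did not choose the cells were more frequent or higher in the members, and others were not. At least 1 of Vegfc and Calcrl was detected in 407 of the 428 members (95.1%), and both in 282 (65.9%). Vegfc was held by 74.5% of members, against 41.0% of 1679 arterial cells (median 4047 UMIs) and 8.17% of 2926 capillary cells with Car4 and Rgcc (median 3845.5 UMIs). With every cell thinned to 2000 UMIs and classed again, it was held by 43.8% of 176 members, 34.6% of arterial and 4.28% of capillary cells. Vcam1, the adhesion molecule that binds leukocyte integrins, was held by 63.1% of members, 4.82% of arterial cells and 4.96% of capillary cells, and after thinning by 38.1%, 2.02% and 2.31%. Neither gene is particular to endothelium here: of the 2864 cells outside the endothelial class (median 7555 UMIs), 716 held Vegfc and 1065 (37.2%) held Vcam1. After thinning the shares were 10.8% and 19.2%. A list of 33 venous genes, chosen with earlier results of these data known, had 27 members at 10 CPM or more that the rule did not use. Of these 27, 14 were at least 2-fold higher in venous than in other endothelial cells in all 6 libraries, with 20 CPM added to both levels, and none was 2-fold lower. The same held for 68 of all 8473 such genes (0.803%), and 55 of 8473 were 2-fold lower (0.649%). Nrp2 and Aplnr, also on the list, were not higher in venous cells, at 268 ± 34.5 against 301 CPM and 205 ± 35.3 against 243 CPM (mean ± SD, n = 6 libraries). Ednrb, the endothelin B receptor, was lower in all 6 libraries, at 36.6 ± 11.95 against 94.2 CPM.

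The highest ratios in venous cells included secreted and matrix proteins and genes of immune contact. Igfbp5, a secreted insulin-like growth factor binding protein, stood at 851 ± 346 CPM in venous and 104 CPM in other endothelial cells. Among matrix genes, elastin (Eln) stood at 241 ± 50.05 against 23.1 CPM, the proteoglycan Bgn at 211 ± 69.0 against 17.6 CPM, and Mgp, an inhibitor of calcification, at 467 ± 166 against 89.3 CPM. Cells outside the endothelial class held more Igfbp5 (1086 CPM) and Mgp (5440 CPM) than the members, and 65.0% of them held Bgn. The 16 fibroblast genes summed to 192 to 381 CPM in members and to 104 to 226 CPM in other endothelial cells, and their part in these ratios was not tested. The proteases Prss23 and Ctsh, the prohormone-processing carboxypeptidase Cpe, and Hs3st1, which builds the antithrombin-binding form of heparan sulphate, were also among the 15 highest ratios, with Serpina1b and Emp3. Ptgs1, which makes prostaglandin precursors, stood at 238 ± 42.4 against 34.6 CPM, and Entpd1, which breaks down extracellular ATP, at 214 ± 17.8 against 55.4 CPM. The immune genes among the 15 were Vcam1 (392 ± 141 against 68.6 CPM), Lrg1 (120.0 ± 79.8 against 4.34 CPM) and Lbp, which carries bacterial lipopolysaccharide (117 ± 59.8 against 8.85 CPM). The MHC class II chains H2-Aa, H2-Ab1 and H2-Eb1 were also 2-fold higher in all 6 libraries, at 138 ± 60.8, 169 ± 66.3 and 117 ± 58.1 CPM against 17.8, 29.2 and 15.1 CPM. Their chaperone Cd74 was higher in all 6 libraries but 2-fold higher in fewer, at 307 ± 179 against 39.3 CPM.

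**Figure D1:**
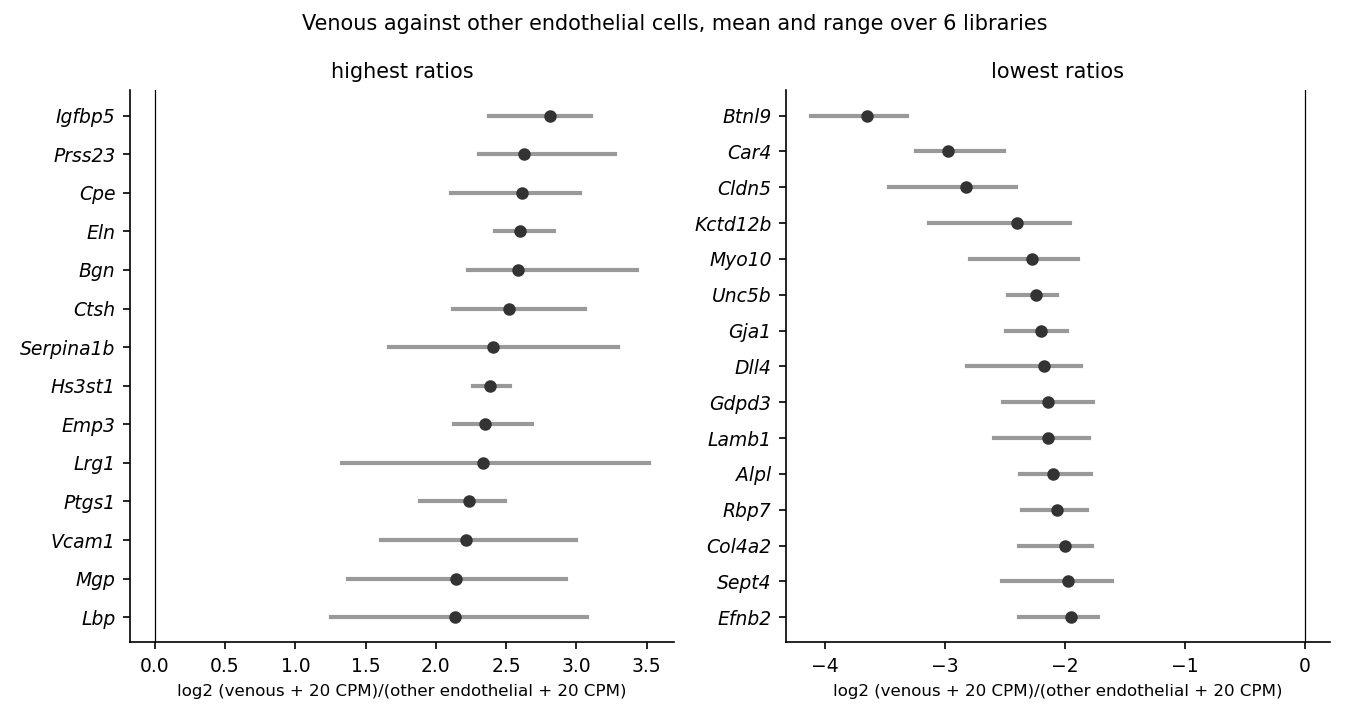
Ratio of the venous level to the level in other endothelial cells for 14 of the 15 highest and for the 15 lowest genes that were at least 2-fold apart in all 6 libraries and that the rule did not use (log2 axis, 20 CPM added to both levels). Points are means and bars the range over the 6 libraries. Igfbp5 leads with a log2 ratio of 2.81, and Btnl9 is lowest at -3.65.

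Several capillary and arterial genes were low in the members, and others were not. Btnl9 stood at 5.79 ± 3.83 against 304 CPM, Car4, the carbonic anhydrase of the capillary surface, at 14.0 ± 8.38 against 248 CPM, and the tight junction gene Cldn5 at 55.3 ± 23.4 against 496 CPM. The Notch ligand Dll4 stood at 13.1 ± 8.77 against 125 CPM, Efnb2, which marks arteries, at 16.5 ± 7.20 against 119 CPM, and the guidance receptor Unc5b at 3.46 ± 1.14 against 91.5 CPM. The 15 lowest ratios also held the gap junction gene Gja1, the basement membrane genes Lamb1 and Col4a2, Alpl, Rbp7, Myo10, Kctd12b, Gdpd3 and Sept4. Of 20 arterial list genes the rule did not use, 6 were 2-fold lower in all 6 libraries and none 2-fold higher, but 5 were higher by less in all 6 libraries. These 5 were Bmx, Clu, the vasoconstrictor Edn1 (125 ± 42.5 against 66.1 CPM), the matrix gene Fbln2 (328 ± 86.9 against 152 CPM) and Crip1 (2958 ± 884 against 1839 CPM). Of 20 such capillary genes, 5 were 2-fold lower and none 2-fold higher. Meox2 was higher in all 6 libraries (287 ± 27.2 against 219 CPM), and Fabp4, a fatty acid carrier abundant in heart capillaries, stood at 21654 ± 2623 against 22787 CPM. Stmn2, on the rule's arterial list, ran the other way, at 592 ± 137 against 364 CPM, and 332 members held 1 gene of that list. Sema3g had 1 UMI over all members, and Hey1 and Gja4 had none. Because the rule left out cells with 2 or more genes of that list, these low counts were partly set in advance.

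Receptors of the adrenomedullin pathway were uneven. Calcrl stood at 556 ± 144 against 161 CPM and its partner Ramp3 at 174 ± 15.8 against 102.5 CPM, while the partner Ramp2 stood at 1043 ± 59.1 against 1012 CPM. The ligand Adm was low, at 3.46 ± 4.56 against 52.9 CPM, and the decoy receptor Ackr3 high, at 335 ± 57.7 against 126 CPM. Selp, the P-selectin of Weibel-Palade bodies, was rare in members, at 29.0 ± 17.7 CPM, yet above the 1.85 CPM of other endothelial cells. Angpt2, another Weibel-Palade cargo, was lower in members, at 3.00 ± 3.93 against 29.8 CPM. Ackr1, a chemokine receptor of venules, had 13, 0 and 3 UMIs in the control and 3, 0 and 1 in the Dsp_het libraries.

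Markers of several other lineages were sparse in the members. The rule itself held Col1a1, Dcn, Upk3b and C1qa together to 1 UMI, so low sums of lists with these genes were partly set in advance. Even so, the 16 fibroblast genes summed to 192 to 381 CPM, against 104 to 226 CPM in other endothelial cells. The 16 T, NK, B cell and neutrophil genes summed to 0 to 4.92 CPM with 15 of them at 0, and the 16 macrophage and monocyte genes to 14.1 to 34.4 CPM. The 16 pericyte and smooth muscle genes summed to 77.5 to 199.7 CPM and the 12 cardiomyocyte genes to 17.02 to 256 CPM. Lyve1, a lymphatic marker, was held by 18 members (4.21%), but the lymphatic regulator Prox1 by 2. The 13 lymphatic list genes summed to 267 to 338 CPM, above the 137 to 253 CPM of other endothelial cells. Of 7 at 10 CPM or more, 3 were higher in members in all 6 libraries and 1 (Ccl21a) lower. The 3 were Nts (133 against 44.9 CPM), Sema3d (39.0 against 5.20 CPM) and Fgl2 (16.1 against 3.03 CPM). The 96 endothelial cells set apart by Npr3 also held Cpe (243 CPM), Bgn (149 CPM), Mgp (524 CPM), Vcam1 (241 CPM) and Calcrl (344 CPM). Endocardial list genes, 14 in all, summed to 163 to 392 CPM in members and 122 to 205 CPM in other endothelial cells. Among 7 of them at 10 CPM or more, 2 were higher in members in all 6 libraries and 0 lower. Cytl1, also on the venous list, stood at 99.25 against 9.46 CPM, and at 110.1 CPM in the Npr3 cells. Tmem108 stood at 22.4 CPM in members and 58.7 CPM in the Npr3 cells. Whether endocardial cells were among the members was not tested.

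Members made up 4.66%, 3.04% and 2.60% of endothelial cells in the control libraries and 4.27%, 5.19% and 10.9% in the Dsp_het libraries. The 95% Clopper-Pearson intervals, which cover counting error only, ran from 1.99% to 3.34% in control replicate 3 and from 8.73% to 13.4% in Dsp_het replicate 3. The means were 3.44% ± 1.08 and 6.78% ± 3.58 (SD, n = 3 each), and the groups overlapped (two-sided exact permutation p = 0.2, where the smallest possible is 0.1). Without Dsp_het replicate 3, whose members had the highest median depth, the Dsp_het mean was 4.73%. With every endothelial cell thinned to 2000 UMIs, which left out 702 control and 494 Dsp_het cells, the shares were 2.80%, 1.41% and 0.990% against 2.09%, 2.36% and 4.24% (exact permutation p = 0.3). The difference in share did not exceed the spread between libraries by this test.

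**Figure D2:**
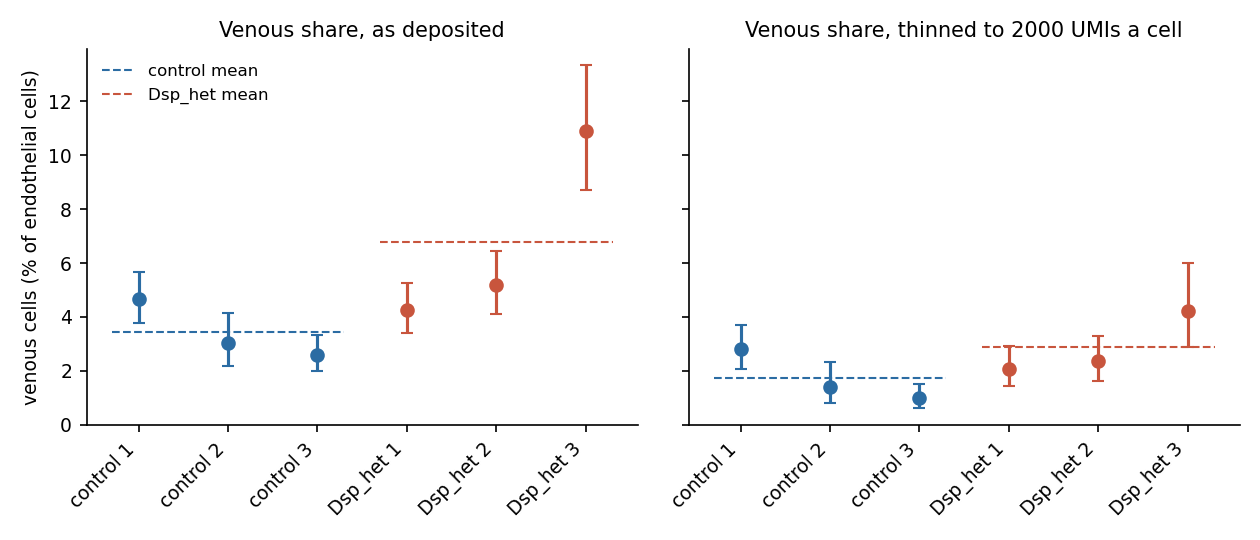
Venous cells as a percentage of endothelial cells in each library, as deposited (left) and after thinning every cell to 2000 UMIs (right). Bars are 95% Clopper-Pearson intervals and dashed lines the group means. Dsp_het replicate 3 is highest in both panels, at 10.9% and 4.24%, and control replicate 1 lies above Dsp_het replicate 1 in both.

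Genotype was not used by the rule, so it was tested within the members. Summed counts of 5906 genes were fitted with edgeR's quasi-likelihood test and Benjamini-Hochberg adjustment. Of the 5896 that the rule did not use, 1 passed an adjusted p of 0.05 (0.017%), and 264 of the 5906 had an unadjusted p under 0.05. In 263 genes (4.46%) every Dsp_het library lay above every control library, and in 281 (4.77%) below. DESeq2 called 0 genes, with 76 at an unadjusted p under 0.05.

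The gene that passed was Ctgf (Ccn2 in the annotation, chromosome 10, 24595442 to 24598683, GRCm38), a secreted matricellular protein and classic target of YAP and TGF-beta signalling. It fell in the venous cells of Dsp_het hearts. Ctgf stood at 111, 83.6 and 163 CPM in the control libraries and at 47.0, 35.5 and 8.89 CPM in the Dsp_het libraries. All control libraries lay above all Dsp_het libraries, with Dsp_het replicate 3 lowest. The group means were 119 ± 40.5 and 30.5 ± 19.5 CPM (SD, n = 3 each), a log2 fold change of -2.10 (SE 0.37, edgeR adjusted p = 0.0458). Few molecules carry this result: 65, 17 and 58 UMIs in controls and 20, 18 and 6 in Dsp_het, in 18, 5 and 15 against 12, 12 and 5 cells. The single cell with most Ctgf held 19, 8 and 25 UMIs in the control libraries and 6, 7 and 2 in the Dsp_het libraries. With that cell left out of each library, levels were 79.4, 45.8 and 94.2 CPM against 33.5, 22.1 and 6.03 CPM, and the groups still did not overlap. The share of members with a Ctgf UMI was 19.1%, 13.2% and 25.4% against 14.8%, 15.8% and 6.25%, and here the groups overlapped. The fit on sums does not separate fewer positive cells from fewer molecules per positive cell. By the counts above, every control library held more Ctgf UMIs per positive cell than every Dsp_het library. That order also held with the highest cell of each library left out. Positive cells were few, and the difference per positive cell was not tested.

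The Ctgf call was not stable. It was lost without control replicate 3 (adjusted p = 0.259), without Dsp_het replicate 3 (0.176), and with barcodes of 1 library only (0.349), and it passed in 9 of 15 alternatives (edgeR and DESeq2 adjusted p from 3.34e-10 to 0.9996), with a log2 fold change between -2.57 and -1.55. Cells outside the endothelial class held Ctgf at 97.4 to 218 CPM, and the summed fibroblast genes of the members were 255, 319 and 250 CPM in controls against 381, 192 and 371 CPM in Dsp_het. The part of other cells' RNA in the Ctgf result was not tested. Cyr61, another CCN family gene and YAP target, stood at 121 ± 8.18 and 115 ± 36.3 CPM (log2 fold change -0.08, edgeR adjusted p = 0.999).

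Next to Ctgf stood 5 genes at an adjusted p of 0.0888, which misses the threshold, all with groups that did not overlap. Bmp4, a BMP ligand (chromosome 14, 46383520 to 46390669, GRCm38), stood at 140, 118 and 149 CPM in controls and at 56.4, 73.1 and 62.3 CPM in Dsp_het (log2 fold change -1.10, SE 0.22). Bambi, a decoy receptor that dampens TGF-beta and BMP signalling, stood at 68.1, 83.6 and 90.0 against 35.2, 35.5 and 28.2 CPM (-1.27, SE 0.27). Stab1, a scavenger receptor of sinusoidal and lymphatic endothelium, stood at 95.3, 83.6 and 64.7 against 32.9, 33.6 and 38.5 CPM (-1.21, SE 0.26). Each of the 3 was lower in every Dsp_het library.

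The other 2 were higher in Dsp_het. Igfbp5, the gene with the highest venous ratio, stood at 691, 462 and 588 CPM in controls and at 1309, 827 and 1227 CPM in Dsp_het (log2 fold change 0.94, SE 0.18). Nov (Ccn3), a CCN family protein like Ctgf, stood at 54.5, 49.2 and 33.8 against 98.7, 96.7 and 120.1 CPM (1.19, SE 0.25). A Nov UMI was found in 23.4%, 21.1% and 13.6% of control members and in 33.3%, 39.5% and 46.2% of Dsp_het members, so for this gene the shares of cells did not overlap either. The members of Dsp_het replicate 3 were also the deepest.

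**Figure D3:**
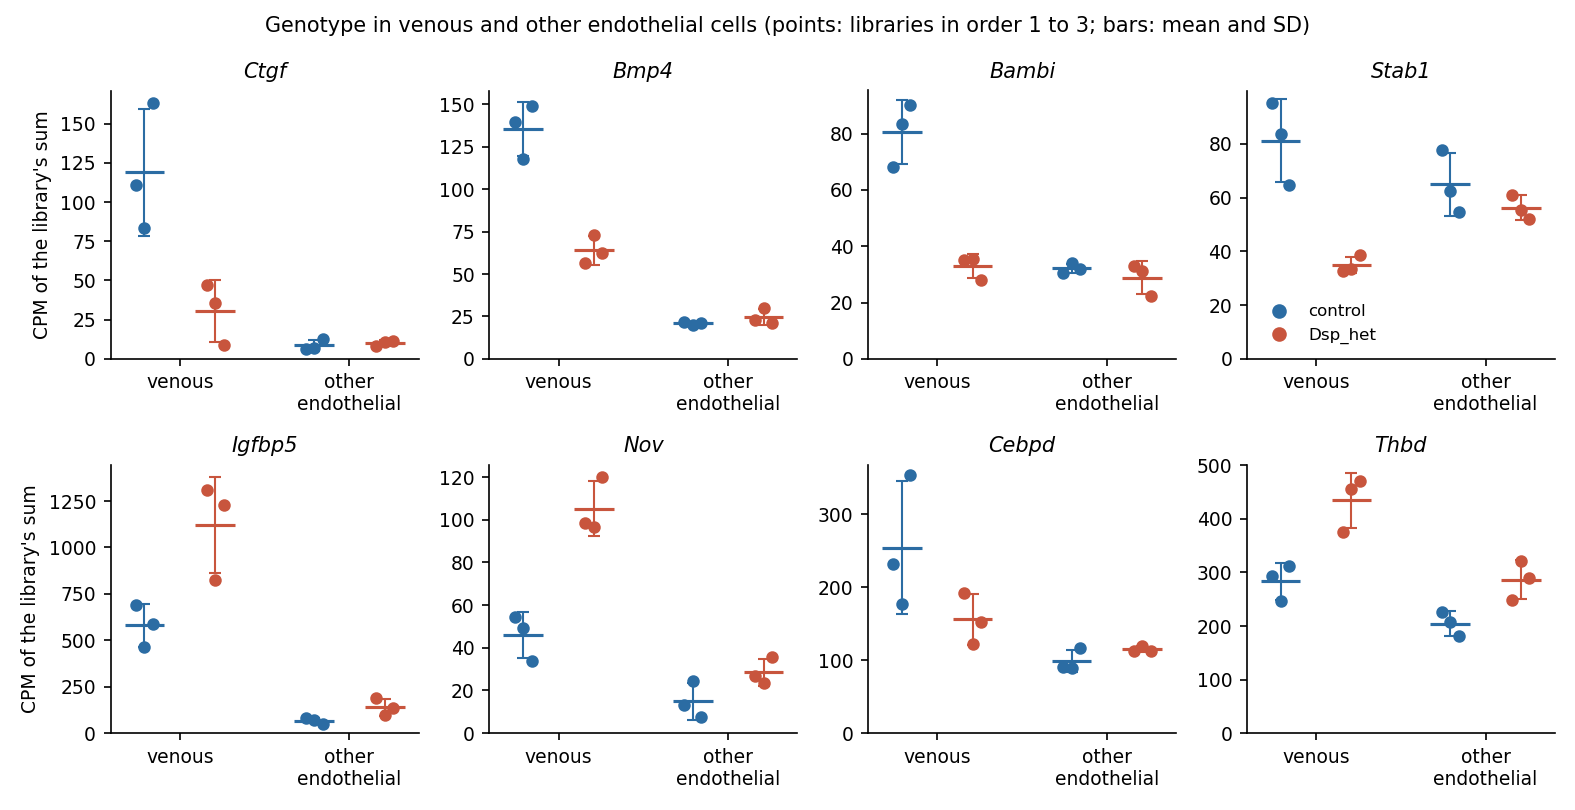
Level of 8 genes in each library, in venous and in other endothelial cells (y axis: CPM of the library's summed cells, from 0). Points are libraries, horizontal bars means and vertical bars SD over 3 libraries. Ctgf is the gene that passed the genotype test in venous cells; in other endothelial cells it lies between 6.28 and 12.9 CPM in both groups.

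The remaining genes with the 8 smallest p-values in each direction also missed the threshold. Lower in Dsp_het were Sept4 (log2 fold change -0.96), the actin-binding gene Rflnb (-0.66), the matrix gene Abi3bp (-1.10) and Cebpd, a transcription factor of acute-phase responses (-0.74), with adjusted p-values of 0.726 to 0.999. Higher were the BMP antagonist Nbl1 (1.34, adjusted p = 0.233), Tppp3 (1.26, 0.451), the metalloprotease inhibitor Timp3 (0.75, 0.487), Exosc2 (1.18), the kinase Mapk9 (1.49) and Igfbp6 (2.52), the last 3 at an adjusted p of 0.726. Igfbp6 rests on Dsp_het replicate 1, at 291 CPM against 29.6 and 34.1 CPM in the other Dsp_het libraries and 17.02, 19.7 and 22.5 CPM in controls. A single cell held 63 of the 124 UMIs of Dsp_het replicate 1, and cells outside the endothelial class held Igfbp6 at 1009 to 2309 CPM.

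Genes of venous identity gave no call. Vegfc stood at 352 ± 64.8 and 376 ± 56.0 CPM (log2 fold change 0.12, SE 0.18), and Calcrl at 545 ± 135 and 567 ± 183 CPM (0.04, SE 0.20). Nrp2 (-0.01), Aplnr (-0.10), Cpe (-0.05), Flt4 (0.08), Ramp2 (0.00), Ramp3 (0.20), Ephb4 (0.23) and Il6st (-0.17) had an SE of 0.15 to 0.32 and adjusted p-values of 0.999 or more. Vcam1 stood at 315 ± 141 and 468 ± 111 CPM (0.59, SE 0.24), Icam1 at 168 ± 58.2 and 148 ± 18.2 CPM (-0.13, SE 0.21), and Selp at 33.9 ± 25.8 and 24.1 ± 6.62 CPM (-0.69, SE 0.41). Plvap, of fenestrated and venous endothelium, had a log2 fold change of 0.33 (SE 0.34), and Bgn of -0.46 (SE 0.22). Thrombomodulin (Thbd), which turns thrombin into an anticoagulant, stood at 293, 246 and 312 CPM in controls and at 376, 456 and 471 CPM in Dsp_het (0.60, SE 0.17, edgeR adjusted p = 0.726). Thbd also stood higher in other endothelial cells of Dsp_het, at 205 ± 22.9 and 286 ± 36.6 CPM, without passing there (0.48, edgeR adjusted p = 0.999). Of the genes that chose the cells, Nr2f2 stood at 374 ± 30.7 and 382 ± 29.0 CPM and Vwf at 1009 ± 106 and 791 ± 21.2 CPM.

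The reporter stood higher in the Dsp_het libraries but did not pass the test. GFP stood at 2422, 2408 and 2886 CPM in controls and at 3510, 3204 and 3479 CPM in Dsp_het (log2 fold change 0.40, SE 0.14, edgeR adjusted p = 0.999). The groups did not overlap, which held in this direction for 4.46% of all genes. In other endothelial cells GFP ran from 3277 to 3572 CPM in controls and from 3869 to 4211 CPM in Dsp_het. Wt1 had 18, 5 and 7 UMIs in controls and 8, 13 and 7 in Dsp_het.

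By gene list, with genes used by the rule left out, Ctgf was the single call, in the matrix list and in the shear stress and YAP list. The median log2 fold change over all 5896 genes was -0.00088, with 2941 above 0. Of 27 venous genes tested, 0 were called, 10 were above 0, and the median was -0.06. Of 26 TGF-beta and BMP genes, 0 were called and 16 were above 0, with a median of 0.11, so Bmp4 and Bambi lay apart from most of their list. Of 25 matrix genes, 1 was called and 8 were above 0, with a median of -0.09. Of 21 haemostasis and Weibel-Palade genes, 0 were called, 14 were above 0, and 4 had Dsp_het libraries all above the controls, against 4.46% of all genes. These 4 were Thbd, the thrombin receptor F2r, the secretory Rab3d and Anxa3. Of 16 MHC and antigen presentation genes, 0 were called and 14 were above 0, with a median of 0.24 and 1 non-overlapping gene (H2-T23). Of 26 interferon genes, 0 were called and 7 were above 0, with a median of -0.17. Of 31 immediate early and heat shock genes, 0 were called and 11 were above 0, with a median of -0.12. The heat shock gene Hspa1a, named after its values were seen, ran from 18.7 to 515 CPM among the controls.

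**Figure D4:**
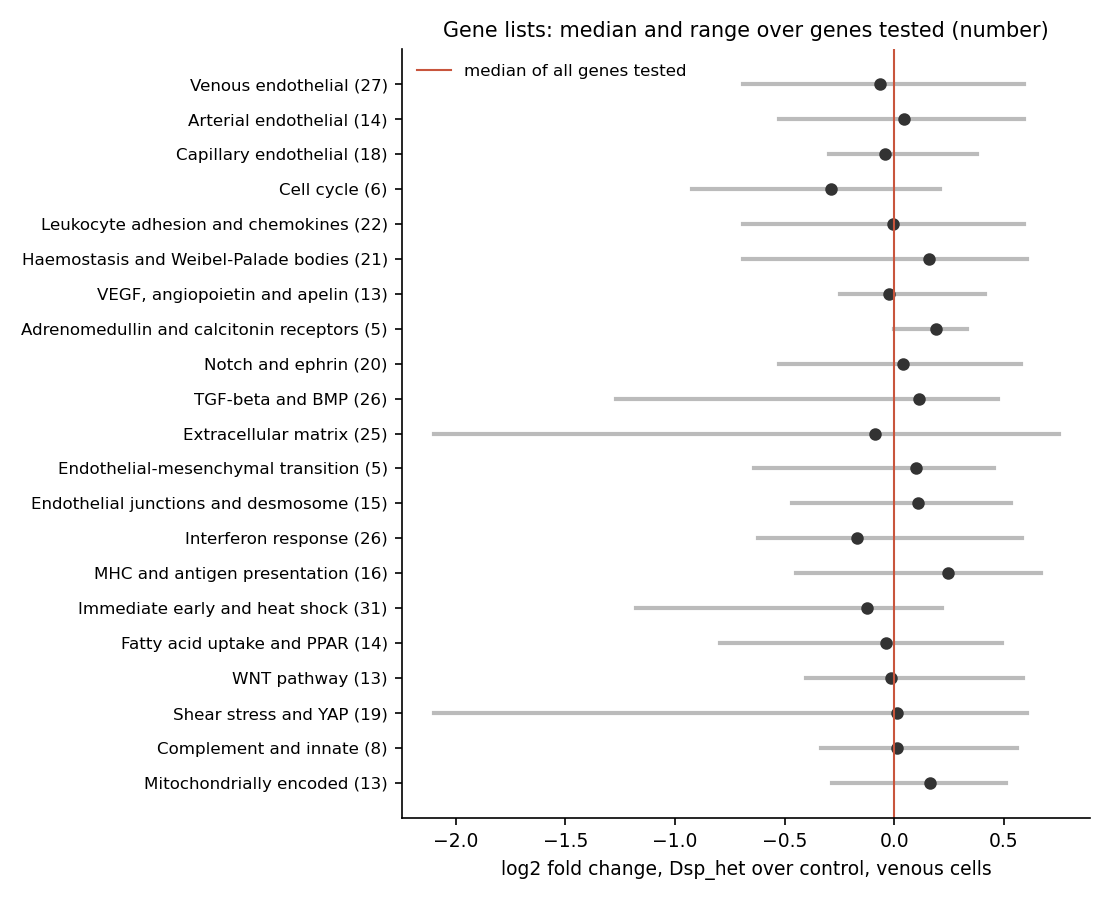
Log2 fold change between genotypes in venous cells for the gene lists with at least 5 genes tested that the rule did not use (number in brackets). Points are medians, bars the range over genes, and the vertical line the median of all genes tested. The medians lie between -0.29 for cell cycle genes and 0.24 for MHC and antigen presentation.

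Whether genotype acted differently in venous than in other endothelial cells of the same libraries was tested as an interaction, with library as a block. Of 10576 genes not used by the rule, 5 passed (0.0473%, edgeR quasi-likelihood test, Benjamini-Hochberg), and all 5 had a lower fold change in venous cells; 3 of them are described here. For Ctgf the difference of log2 fold changes was -2.32 (SE 0.41, adjusted p = 0.00298). Ctgf stood at 6.29, 6.70 and 12.9 CPM in the other endothelial cells of controls and at 7.98, 10.9 and 11.4 CPM in those of Dsp_het, so these groups overlapped. For Bmp4 the difference was -1.31 (SE 0.23, adjusted p = 0.00298), with 21.8, 20.1 and 21.3 CPM in other endothelial cells of controls and 22.8, 30.0 and 21.1 CPM in those of Dsp_het. For Cebpd it was -0.95 (SE 0.18, adjusted p = 0.00554). Cebpd stood at 232, 177 and 354 CPM in control members and at 193, 122 and 153 CPM in Dsp_het members. In other endothelial cells it stood at 90.6, 89.9 and 116 CPM against 113, 120.0 and 113 CPM.

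The class chosen for comparison decided which genes passed. Against the other endothelial cells with neither Nr2f2 nor Vwf, a comparison added after the data were seen, 3 genes passed. These were Ctgf (-2.11, edgeR adjusted p = 0.0451), Bmp4 (-1.36, 0.0253) and Cebpd (-0.92, 0.0451). Against capillary cells Ctgf (-2.15, 0.0389) and Cebpd (-0.98, 0.00417) passed but Bmp4 (-1.05, 0.454) did not. Against arterial cells 0 genes passed, with 396 of 8520 at an unadjusted p under 0.05, though Ctgf (-1.87) and Bmp4 (-0.91) kept their sign. Without any 1 library, Ctgf and Bmp4 passed in all 6 fits, and Cebpd was lost without control replicate 3. Ier3 (-0.90, adjusted p = 0.0557) and Fmo2 (-0.54, 0.0591), the next genes by p, missed the threshold, and Bambi (-1.09, 0.187) did too.

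**Figure D5:**
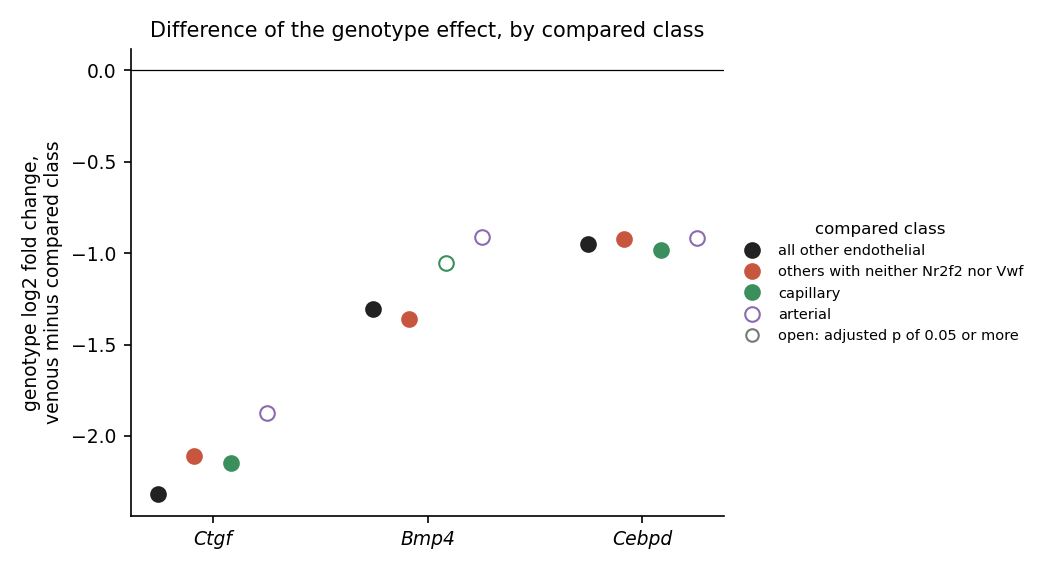
Genotype log2 fold change in venous cells minus that in the compared class, for 3 genes that passed against all other endothelial cells. Filled points have an edgeR adjusted p under 0.05. Ctgf and Cebpd pass against 3 of the 4 classes shown, Bmp4 against 2, and all values lie below 0.

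Igfbp5 and Nov, higher in the Dsp_het members without passing, also stood higher in the other endothelial cells of Dsp_het hearts without passing there. Igfbp5 stood at 79.6, 72.8 and 50.7 CPM in the other endothelial cells of controls and at 189, 96.1 and 135 CPM in those of Dsp_het, with no overlap. The genotype log2 fold change of Igfbp5 was 1.05 in all other endothelial cells and 0.94 in members, a difference of -0.11 (SE 0.14, edgeR adjusted p = 1). That difference turned with the class compared, at -1.32 against arterial and 1.38 against capillary cells, and passed in none of 11 alternatives (lowest adjusted p = 0.125). Nov gave 0.99 in other endothelial cells and 1.19 in members, a difference of 0.09 (SE 0.30, edgeR adjusted p = 1). For Nov the other endothelial cells stood at 13.0, 24.5 and 7.36 CPM in controls and at 26.8, 23.4 and 35.6 CPM in Dsp_het, so these groups overlapped. Capillary cells held little Nov, with means of 1.72 CPM in controls and 1.32 CPM in Dsp_het.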

How the data were processed

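The authors deposited raw UMI counts of 31055 genes in 18283 barcodes, with total UMI counts per barcode that equalled the column sums. Per the submitters' processing notes, Seurat and the GRCm38 genome were used; which aligner and counting program ran, and all versions, is not given in the sources used here. Barcode suffixes were matched to the sample numbers in the labels. The members, gene lists and tests were chosen with earlier results of these data known. No doublet caller was run and no integration was applied. Counts were summed per library over member cells (203451 to 674646 UMIs) and tested by the quasi-likelihood method of edgeR 4.0.16, scaled by TMM and filtered by filterByExpr at a minimum of 10 counts, two-sided, at an adjusted p of 0.05. DESeq2 1.42.0, RLE scaling, other filters, cell subsets and leaving out each library were alternatives. Data were simulated with the same library sizes and a single spread between libraries for every gene. On these the genotype fit called 98.8% of genes changed 4-fold and 56.5% of those changed 2-fold (5608 genes). The interaction fit called 94% and 36%. Genes of larger spread, or with UMIs gathered in few cells, were not simulated. Levels against other endothelial cells were compared with 20 CPM added. Named genes were those past the threshold, the 8 genes of smallest p in either direction, a fixed set of venous and reporter genes, the 15 highest and 15 lowest ratios, and the 8 smallest interaction p-values. Gene coordinates are from the GENCODE annotation of GRCm38. Entpd1, the MHC class II genes and Cd74, Adm, Ackr3, Cyr61, Xist, Hspa1a and genes named for groups that did not overlap were chosen after their values were seen. Some genes that met the naming rule are not reported here, and remain in the counts.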

Additional observations from a re-analysis of the deposited data

Results flagged for a closer look

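The genotype effect differed between venous and other endothelial cells by the interaction test for the 3 genes given here. The difference of log2 fold changes, venous minus other endothelial, was -2.32 for Ctgf, -1.31 for Bmp4 and -0.95 for Cebpd. For Ctgf and Bmp4 the level in venous cells was lower in every Dsp_het library than in every control library, and for Cebpd the groups overlapped.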

How the results depend on the processing

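The number of genes called between genotypes in venous cells, 1, was 18 with no filter on low counts, and 0 with DESeq2, with cells of at most 10% mitochondrial UMIs, with barcodes found in 1 library and, added after the data were seen, without the 22 members that held both Car4 and Rgcc. Leaving out 1 library gave 0 to 9 calls: 0 without control replicate 3, 9 without Dsp_het replicate 2, and 1 without Dsp_het replicate 3, which was another gene (Cwc22). With a replicate block 10 genes were called, 7 higher and 3 lower. Same-numbered libraries correlated at -0.03, 0.04 and -0.05 in their deviations from the group means. Libraries of different number correlated at -0.04 to 0.07. With 3 libraries in a group, these values cannot tell whether same-numbered libraries were prepared together. The interaction count, 6 with 1 gene used by the rule included, was 15 with no filter on low counts, 0 against arterial cells, 10 against capillary cells, 3 against other endothelial cells with neither Nr2f2 nor Vwf, and 6 to 15 without 1 library. The cause of these shifts was not tested. With 5 CPM added in place of 20, 256 genes rather than 131, genes used by the rule included, were at least 2-fold apart in all libraries. With cells of at least 4000 UMIs this was 102, and without 1 library 136 to 145. The log2 ratio of the mean venous share, 0.98, stayed above 0 in all alternatives run, between 0.46 and 1.26. Its exact permutation p never went under 0.2. With 1 library left out, 0.2 is the smallest p this test can give, so those settings could not give a lower one. The groups no longer overlapped without control replicate 1 or without Dsp_het replicate 1, both at that smallest p. For the named genes, no direction that had passed in the reported fit or in the alternative reversed. In simulated data of this depth, with the same spread for every gene, 98.8% of 4-fold and 56.5% of 2-fold genotype changes passed. For the interaction these shares were 94% and 36%. Recovery of genes with a larger spread was not tested. Control replicate 2 held 38 members and 203451 UMIs.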
